A study of Mus musculus with 3 samples.

Results

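The mouse potassium channel genes are the protein-coding genes whose symbol starts with Kcn, and 94 of the 21887 protein-coding genes of the RefSeq annotation of GRCm38.p6 met that rule. Accessible regions were counted per locus, taken as the span of a gene plus 10 kb either way. The regions came from ATAC-seq, an assay in which a transposase inserts adapters where DNA is open, in ECOMG, a mouse myeloid progenitor cell line. All cells carried the FKBP12F36V_NIPBL genotype, a degron tag on the cohesin loader NIPBL, and grew in RPMI medium with serum, GM-CSF and β-estradiol. The groups were +estradiol at 0 h without dTAG, +estradiol at 6 h with dTAG and +estradiol at 72 h with dTAG, where dTAG is the small molecule that directs the tagged protein to degradation. Each group held 1 library from 50000 cells, so differences between times have no replicate behind them and were not tested. There was no library without dTAG at 6 h or 72 h among those analysed, so dTAG, time in culture and the single library cannot be told apart. Both later libraries are set against the same 0 h library. Because each library averages many cells, a site open in fewer cells and a site less open in each cell cannot be told apart.

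Potassium channels let potassium ions leave or enter the cell along their gradient and set the resting potential and the end of the action potential. Most of the family is known from neurons, heart, muscle, kidney and secretory tissue, where different cells use different sets of subunits. Blood cells are known to use a few of them: Kcna3 and Kcnn4 hold the membrane potential that drives calcium entry in lymphocytes, and Kcnj2 and Kcnk13 act in macrophages and microglia. Cohesin extrudes chromatin loops, and NIPBL is the factor that drives this activity.

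The 0 h, 6 h and 72 h lists contained 182233, 178055 and 145044 regions. The labelled cell type was looked at through 12 myeloid progenitor markers. Of these, 11 had a region within 1 kb of a gene end at 0 h, 11 at 6 h and 10 at 72 h. Over all coding genes the shares were 64.2%, 63.8% and 59.1%. Such a region was listed for 6, 5 and 3 of 6 neuron markers and 4, 4 and 3 of 6 heart and muscle markers. It was listed for 3, 2 and 2 of 4 lymphoid markers and 2, 2 and 2 of 4 erythroid markers. This measure alone did not set the myeloid markers apart from the neuron markers at 0 h. The loci of the myeloid progenitor markers summed to 189, 185 and 176 regions, or 168, 168 and 163 with each region counted once. At 72 h, 8 of these 12 loci had fewer regions than at 0 h, 3 had more and 1 had the same number. From 0 h to 72 h Ptprc rose from 22 to 38, while Prtn3 fell from 27 to 16. Elane, whose locus overlaps that of Prtn3, fell from 24 to 13. The transcription factor gene Spi1 had 29, 27 and 29. Mpo, the myeloperoxidase gene, had no end region in any list, and the locus of the stem cell factor receptor gene Kit went from 7 regions to 5 and 0. Neuron markers summed to 91, 85 and 44 regions in 6 loci, and heart and muscle markers to 60, 52 and 32 in 6 loci. Lymphoid markers summed to 35, 30 and 14 in 4 loci, and erythroid markers to 32, 31 and 25 in 4. A listed region at a locus does not show that its gene is expressed. Whether a change in the makeup of the culture had a part in the results at 72 h was not tested.

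Potassium channel promoters were mostly without a listed region in these cells. RefSeq start-site windows, from 250 bases before to 50 bases after a start, were given for 69 of the 94 genes, with 94 windows in all. A region overlapped 24 windows at 0 h (25.5%), 22 at 6 h (23.4%) and 18 at 72 h (19.1%), while over all coding genes the shares were 54.3%, 54.4% and 51.5%. At the level of genes, 20, 18 and 15 of the 69 had a covered start window (29.0%, 26.1% and 21.7%), against 56.0%, 56.0% and 53.1% of all coding genes with windows. The windows were also poorer in CpG: 26 of 94 (27.7%) had an observed over expected CpG ratio of at least 0.6, against 47.7% of all coding windows. The gap remained within CpG classes. Among those 26 CpG-rich windows a region was listed at 11, 11 and 8 (42.3%, 42.3% and 30.8%), against 83.9%, 83.8% and 81.4% of all CpG-rich coding windows. Among the other 68 windows a region was listed at 13, 11 and 10, or 19.1%, 16.2% and 14.7%, against 27.4%, 27.5% and 24.3%. In the CpG-poor class at 0 h and 72 h the all-gene share lay within the exact 95% interval of the Kcn share (10.6 to 30.5 and 7.28 to 25.4).

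The following promoters, which differ in CpG content and in listed regions, show the sequences behind these counts. Each is the 250 bases before the start site, written 5′ to 3′ on the strand of the gene (RefSeq, GRCm38.p6), with every CpG in capitals. Kcna3 (chr3:107035912-107036161, plus strand) encodes the Kv1.3 channel of lymphocytes and has 31 CpG in this stretch. Kcnj2 (chr11:111065914-111066163, plus strand) encodes the inward rectifier Kir2.1 and has 14. Kcnk5 (chr14:20181783-20182032, minus strand) encodes the acid-sensitive leak channel TASK-2 and has 19. Kcna2 (chr3:107101317-107101566, plus strand) encodes Kv1.2, a channel of axons, and has 18.
Kcna3: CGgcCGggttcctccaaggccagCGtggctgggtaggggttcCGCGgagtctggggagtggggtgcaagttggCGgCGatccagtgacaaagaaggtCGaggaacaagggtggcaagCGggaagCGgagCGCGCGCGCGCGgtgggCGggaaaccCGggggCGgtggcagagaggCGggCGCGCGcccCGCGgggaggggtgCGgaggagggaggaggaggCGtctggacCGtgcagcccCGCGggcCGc
Kcnj2: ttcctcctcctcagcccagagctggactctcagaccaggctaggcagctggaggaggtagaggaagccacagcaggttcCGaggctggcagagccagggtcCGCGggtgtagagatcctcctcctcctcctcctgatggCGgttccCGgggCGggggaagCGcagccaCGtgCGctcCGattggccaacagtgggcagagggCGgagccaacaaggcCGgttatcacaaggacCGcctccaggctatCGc
Kcnk5: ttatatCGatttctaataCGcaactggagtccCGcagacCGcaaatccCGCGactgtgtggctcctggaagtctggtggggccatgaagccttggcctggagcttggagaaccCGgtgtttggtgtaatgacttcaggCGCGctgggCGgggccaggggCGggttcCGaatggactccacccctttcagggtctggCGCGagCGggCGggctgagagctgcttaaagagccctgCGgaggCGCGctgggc
Kcna2: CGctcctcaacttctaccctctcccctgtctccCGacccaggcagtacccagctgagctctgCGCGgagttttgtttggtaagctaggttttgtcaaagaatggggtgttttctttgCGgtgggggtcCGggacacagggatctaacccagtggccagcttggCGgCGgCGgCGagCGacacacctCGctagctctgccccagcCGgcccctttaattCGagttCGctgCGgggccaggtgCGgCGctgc
The Kcna3 start window was overlapped by a region in all 3 lists, with folds of 14.4, 15.8 and 13.3 in time order. The fold is the ratio of a region's summit to the caller's background, and it is the authors' value for that region. The Kcnj2 window was overlapped in all 3 as well, with folds of 83.2, 122 and 119. At Kcnk5 the folds were 7.56 at 0 h and 4.52 at 6 h, with no region at 72 h. Kcna2 had no region over its start window in any list, although its observed over expected CpG ratio over the window was 0.932, close to the 0.952 of Kcna3 and above the 0.878 of Kcnk5. The Kcnj2 window, at 0.540, falls in the CpG-poor class.

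In all, 17 of 94 Kcn windows, in 14 genes, held a region in all 3 lists and 70 held none in any. Among all 21263 coding windows these numbers were 10744 and 9320. Kcn windows with a region at 0 h and none at 72 h numbered 6 of 24, against 6.55% of all coding windows with a region at 0 h. They belonged to Kcnh5, Kcnj10, Kcnk5, Kcnk7 and Kcnmb4, and the last was 1 of the windows of Kcnn1. A set of short motifs was searched on both strands of the 300-base windows as plain letters, which marks a match and not a bound site. GAGGAAGT, a PU.1 sequence, was found in 0 of 94 Kcn windows and in 3.13% of all coding windows. TTGCNNCAA, searched under the name C/EBP, was found in 4 (4.26%, against 1.79% of all). Its spacing is not that of the C/EBP palindrome, so its matches are counts of these letters and are not read as C/EBP sequences. TGANTCA, an AP-1 sequence, was found in 4 (4.26%, against 6.99%). TGTGGT, a RUNX sequence, was found in 11 (11.7%, against 15.0%). CAGCACC, the left part of the REST site, was found in 10 (10.6%, against 7.24%). None of these motifs contains another, and a window can hold more than 1 of them. No match says only that these letters are not in the window.

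RUNX matches at Kcnn4 and TTGCNNCAA matches at Kcnab2 and Kcne3 are printed below in capitals. They are examples at starts with a region in all 3 lists, and matches of other motifs are not marked. Kcnn4 (chr7:24370013-24370262, plus strand) encodes KCa3.1, the intermediate-conductance calcium-activated channel of blood cells, and held 4 RUNX matches, which 6 of all 21263 coding windows reached. Kcnab2 (chr4:152477550-152477799, minus strand) encodes a cytoplasmic β subunit of Kv1 channels, and Kcne3 (chr7:100176420-100176669, plus strand) a single-pass β subunit. Each of those held 1 TTGCNNCAA match, and the Kcne3 window also held 1 AP-1 match.
Kcnn4: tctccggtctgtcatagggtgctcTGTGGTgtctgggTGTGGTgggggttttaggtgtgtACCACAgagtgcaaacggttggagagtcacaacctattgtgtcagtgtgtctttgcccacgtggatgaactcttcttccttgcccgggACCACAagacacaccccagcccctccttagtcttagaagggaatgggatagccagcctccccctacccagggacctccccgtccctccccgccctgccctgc
Kcnab2: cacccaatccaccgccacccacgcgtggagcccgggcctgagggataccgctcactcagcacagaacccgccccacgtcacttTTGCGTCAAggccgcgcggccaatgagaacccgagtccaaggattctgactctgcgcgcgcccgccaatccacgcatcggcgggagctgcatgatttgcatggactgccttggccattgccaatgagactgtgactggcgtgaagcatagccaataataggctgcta
Kcne3: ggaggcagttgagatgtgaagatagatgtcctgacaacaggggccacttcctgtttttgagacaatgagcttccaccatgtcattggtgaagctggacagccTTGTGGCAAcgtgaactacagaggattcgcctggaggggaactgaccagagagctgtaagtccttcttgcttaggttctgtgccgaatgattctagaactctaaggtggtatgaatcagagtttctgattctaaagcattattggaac
The start windows printed for Kcnn4, Kcnab2 and Kcne3, taken because they hold the match, were each overlapped by a region in all 3 lists. At Kcnn4 the folds were 33.3, 41.4 and 52.3, at Kcnab2 141, 162 and 183, and at Kcne3 36.3, 27.1 and 33.6. Another start window of Kcne3 (chr7:100178433-100178732) had folds of 70.3, 66.3 and 38.3. At Kcnab2, the window at chr4:152448806-152449105 had 125, 139 and 52.3, and that at chr4:152452896-152453195 had no region. TTGCNNCAA matches stood in 3 of the 17 Kcn windows with a region in all 3 lists, against 1.41% of all such coding windows. They were those of Kcnab2, Kcne3 and Kcnn3, a small-conductance calcium-activated channel gene. REST left-part matches stood in 3 of the 17 too (17.6%, against 7.62%), at Kcnh6, Kcnj2 and Kcnq5. The remaining TTGCNNCAA match was at Kcnc2, a fast-spiking Kv3 channel gene whose windows had no region.

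**Figure D1:**
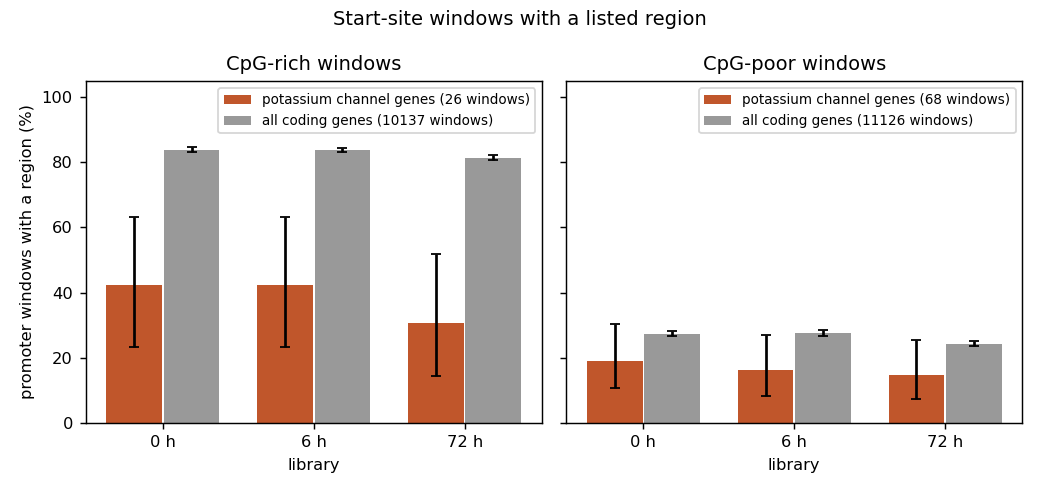
Percentage of start-site windows with a region in each library (horizontal axis), for CpG-rich and CpG-poor windows of potassium channel genes and of all coding genes, with exact 95% intervals as error bars. The CpG-rich Kcn bars stand at 42.3%, 42.3% and 30.8%, beside 83.9%, 83.8% and 81.4% for all coding genes.

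Over the whole locus the family held fewer regions at 72 h, and at 6 h its sum stood close to that of 0 h. The 94 loci summed to 915, 882 and 613 regions in time order, while all coding loci summed to 181410, 177209 and 154945. Divided by the change over all coding loci, the Kcn sum was 0.987 at 6 h (exact 95% interval 0.899 to 1.08) and 0.784 at 72 h (0.707 to 0.870). Limited to a fold of at least 10, the sums were 313, 326 and 306, and the ratio at 72 h was 0.872 with an interval that takes in 1 (0.743 to 1.02). These intervals, like all those given here, cover counting error only. The median Kcn locus held 7, 7 and 4 regions, and the median coding locus 7, 7 and 5. Per 100 kb of locus, Kcn genes had 7.28 regions at 0 h and 4.88 at 72 h, against 12.2 and 10.4 for all coding genes.

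By locus, 38 Kcn genes had fewer regions at 6 h than at 0 h and 29 had more, with 36.2% of all coding loci lower and 29.9% higher. This order turned with the threshold: 14 were lower and 22 higher at a fold of at least 10, and 33 lower and 39 higher with lists of equal size. At 72 h, 70 of 94 had fewer (74.5%) and 10 had more, with 52.3% of all coding loci lower and 20.7% higher. With only regions of fold 10 or more, 32 Kcn loci were lower and 26 higher at 72 h, against 21.5% and 34.1% of all coding loci. The 10 with more regions in the full lists were Kcna2, Kcna3, Kcnd1, Kcnh5, Kcnj16, Kcnj2, Kcnj9, Kcnk13, Kcnk4 and Kcnmb1. Regions within 1 kb of an end of another gene rose from 3 to 6 at Kcnj9 and from 6 to 8 at Kcnk4. At the rest of the 10 their number was the same at 0 h and 72 h. The Kcnmb1 locus lies inside that of Kcnip1, which went from 40 regions to 40 and 27. Kcn loci with no region numbered 2 of 94 at 0 h, 3 at 6 h and 16 at 72 h. Of all 21887 coding loci, 3259 (14.9%), 3372 and 4574 had none, a larger share than among Kcn loci at each time. From 0 h to 6 h, 1 of 92 loci lost all its regions, that of the leak channel gene Kcnk1, against 2.23% of coding loci. Kcna1, the Kv1.1 gene of axons, and Kcne4, a β subunit gene, had no region in any list. A region at 0 h and none at 72 h was found at 14 of 92 loci (15.2%), against 7.57% of coding loci. These were Kcna5, Kcnb2, Kcnc2, Kcnf1, Kcnh8, Kcnj15, Kcnj3, Kcnk1, Kcnk15, Kcnk2, Kcnk5, Kcns3, Kcnv1 and Kcnv2, and all but Kcnk2, Kcnb2, Kcnh8, Kcnk15 and Kcnc2 held only 1 or 2 regions at 0 h.

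**Figure D2:**
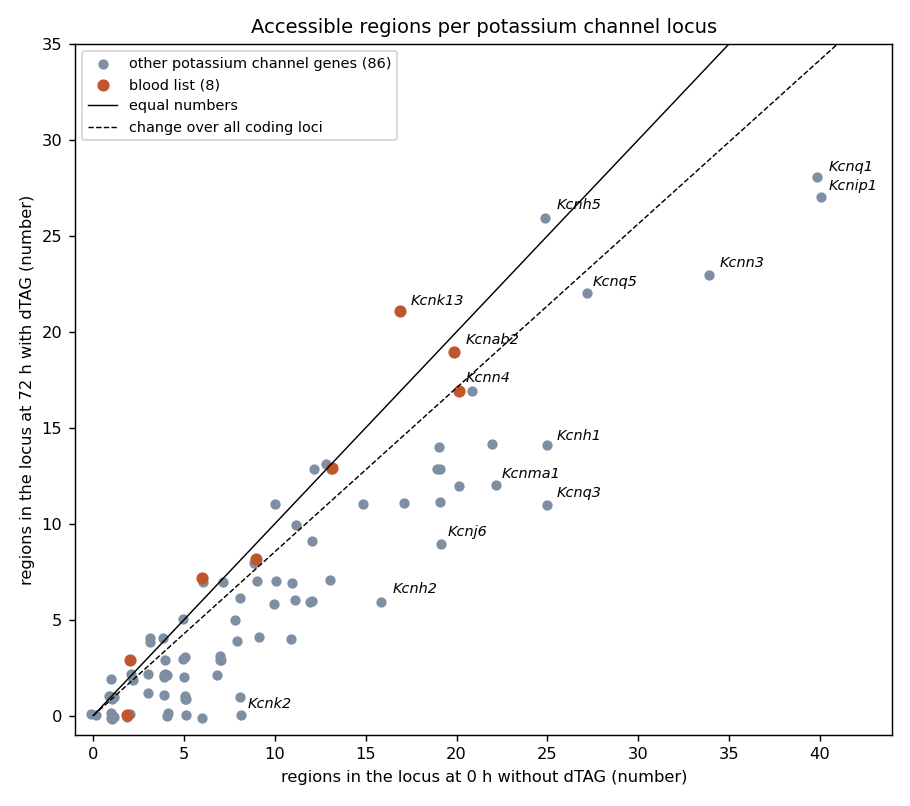
Number of regions in each potassium channel locus at 0 h (horizontal axis) and at 72 h (vertical axis), 1 point per gene with a small random offset, and the blood list in a second colour. The solid line marks equal numbers, with 70 of 94 genes below it, and the dashed line the change over all coding loci.

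The regions that went were mostly weak ones. Counting each region once, 671 of 910 regions of 0 h overlapped a region of 6 h by at least 1 bp (73.7%, 70.7 to 76.6) and 494 overlapped one of 72 h (54.3%, 51.0 to 57.6). The share without overlap over all coding loci was 22.1% at 6 h and 36.7% at 72 h. Regions of 0 h were placed in 4 equal parts of the whole 0 h list by −log10 q. In the strongest part, 212 of 216 Kcn regions were overlapped at 72 h (98.1%, 95.3 to 99.5), against 98.5% in all coding loci. In the next part the shares were 69.1% (62.7 to 75.0) against 78.1%, then 37.4% (31.1 to 44.1) against 46.5%, and in the weakest 16.0% (11.6 to 21.3) against 25.1%. The difference from all coding loci lay in the lower 3 parts, where the all-loci share was above the upper limit of the Kcn interval, while in the strongest part it lay within it. At 6 h the shares from weakest to strongest were 35.4%, 66.1%, 96.1% and 100% for Kcn and 39.1%, 71.9%, 97.0% and 99.97% for all coding loci.

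A mix of heights, gene densities and gene ends like that of the Kcn loci left a gap. All-loci regions weighted to the Kcn mix of these 3 features were overlapped at 72 h in 61.0%, against 54.3% of the Kcn regions. Weighted by height alone the share was 61.3%, by density alone 63.1% and by gene end alone 62.4%. New regions were also fewer: 97 of 607 regions of 72 h had no overlap at 0 h (16.0%, 13.2 to 19.1), against 22.6% of all coding loci. At 6 h the share of new regions was 22.5% (197 of 875), against 20.8%.

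**Figure D3:**
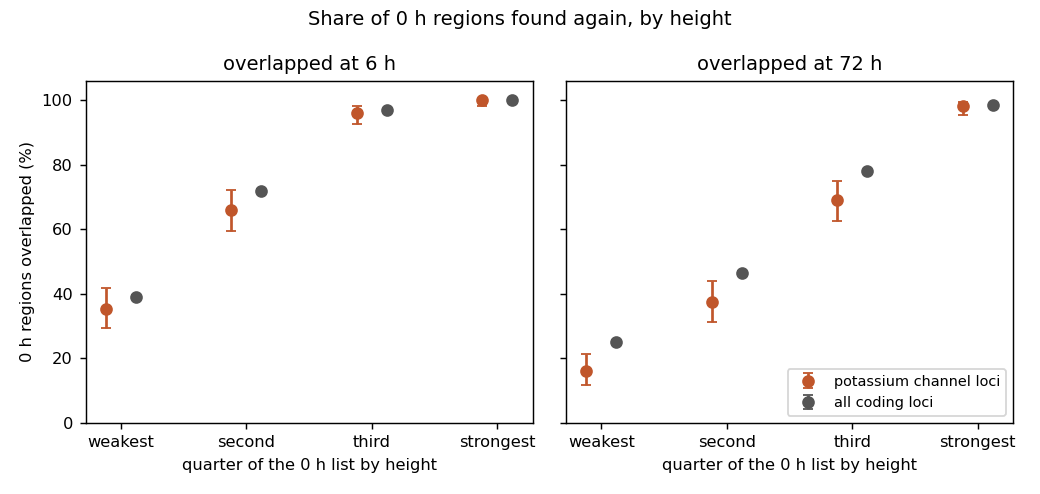
Share of 0 h regions overlapped at 6 h and at 72 h, by height part (4 parts of the list by −log10 q), for Kcn loci and for all coding loci, with exact 95% intervals (those of all loci are smaller than the points). At 72 h the weakest part is at 16.0% in Kcn loci and 25.1% in all, and the strongest at 98.1% and 98.5%.

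Shares differed with position within the locus. Of the 910 regions of 0 h, 543 lay inside a Kcn gene away from any gene end, and 47.1% of them were overlapped at 72 h (42.9 to 51.4). The 223 in the flanks were overlapped in 62.8%, the 49 at the end of another gene in 77.6%, the 84 at a Kcn end alone in 59.5% and the 11 at an end shared with a neighbour in 90.9%. Over all coding loci the share was likewise higher near gene ends (74.2%) than away from them (60.2%), and in Kcn loci these shares were 68.1% and 51.7%. Counts also differed with gene length. The 23 Kcn genes of at least 100 kb (24.5% of the family, 11.1% of all coding genes) went from 354 regions to 330 and 204, a ratio to all coding loci of 0.675 (0.565 to 0.804), and 22 of 23 had fewer at 72 h, against 74.1% of coding genes of that length. The 71 shorter ones went from 561 to 552 and 409, a ratio of 0.854 (0.750 to 0.971), and 48 of 71 had fewer (67.6%), against 49.5%. All coding genes of at least 100 kb had a ratio of 0.918, and shorter ones 1.02.

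A few long genes were left with at most 1 region, a group that was picked after the values were seen. Of 62 Kcn loci with at least 5 regions at 0 h, 7 had at most 1 at 72 h (11.3%, 4.66 to 21.9), against 2.11% of coding loci. All were among the 20 that were at least 100 kb long, where the share over all coding genes was 6.24%, and 0 were among the 42 shorter ones (1.38% of all). Kcnk2, the mechanosensitive leak channel TREK-1 (chr1:189207930-189402782), went from 8 regions to 10 and 0. Kcnd2, the A-type channel Kv4.2 (chr6:21215346-21729805), went from 8 to 5 and 1. Kcnb2, the delayed rectifier Kv2.2, went from 6 to 3 and 0, and Kcnh8, an ELK channel, from 5 to 1 and 0. Kcnt2, a sodium-activated channel, went from 5 to 7 and 1, and Kcnk10 (TREK-2) and Kcnmb2 (a BK β subunit) each from 5 to 5 and 1. The highest region of these loci at 0 h had a fold between 9.07 and 14.4.

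**Figure D4:**
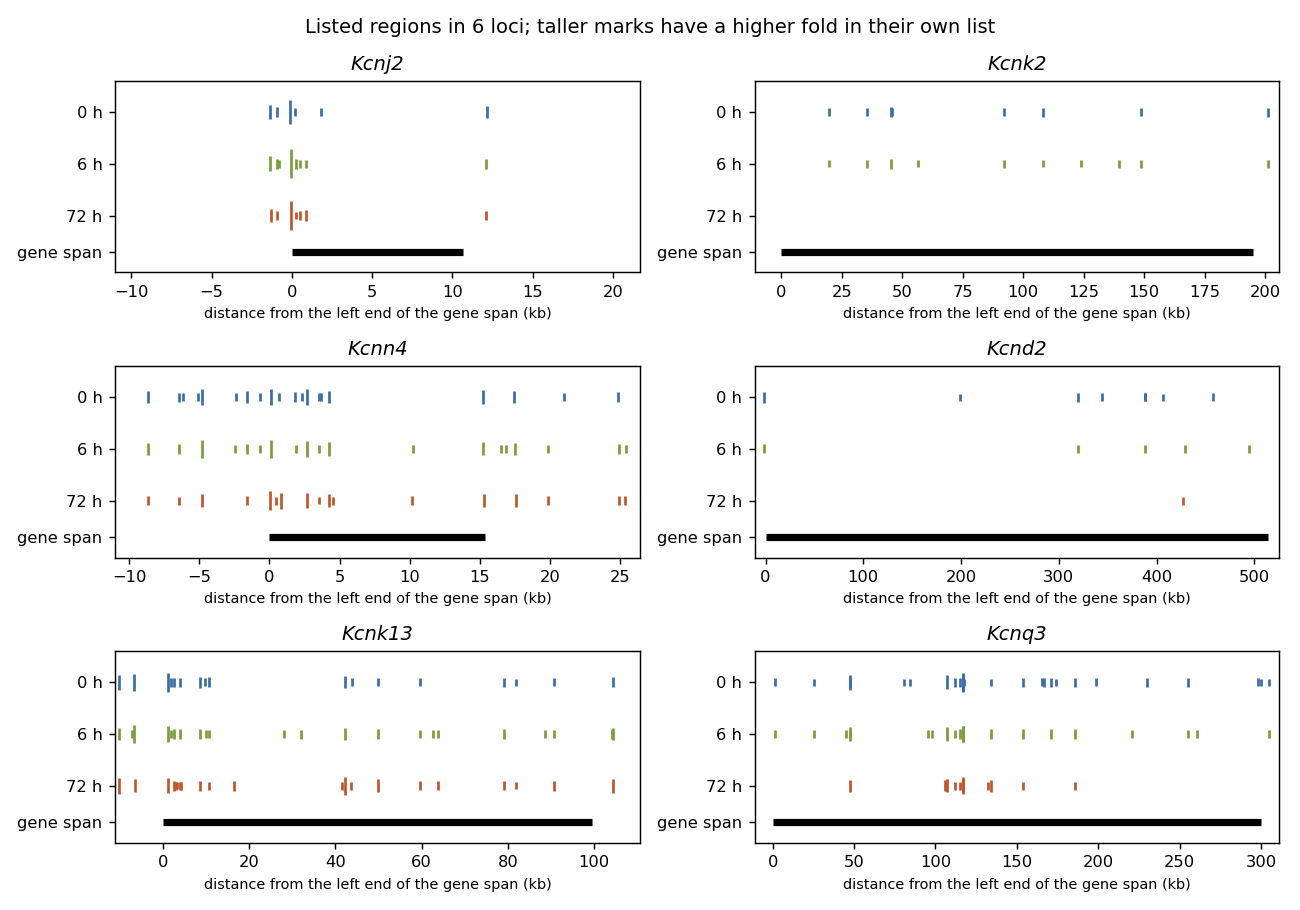
Listed regions in 6 potassium channel loci, 1 row of marks per library, by distance in kb from the left end of the gene span (black bar), with taller marks for a higher fold in their own list. Kcnk2 has 8 marks at 0 h and 0 at 72 h, while Kcnj2 has 6 and 7.

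In some loci with many regions the highest site was the same at all times although fewer regions were listed at 72 h, and in others it was not. Kcnq1 had its highest region inside the gene at chr7:143296008-143296843 at 0 h (fold 102), at chr7:143295985-143296860 at 6 h (129) and at chr7:143296434-143296842 at 72 h (142). Kcnip1 had its at chr11:33931859-33932267 at 0 h (104), with overlapping regions at 6 h (137) and 72 h (85.9). Kcnma1 had its at chr14:23465143-23465452 at 0 h (45.4), with overlapping regions at 6 h (48.2) and 72 h (85.1). These 3 sites lay inside a gene and away from its ends, and the folds come from lists whose median fold was 6.80, 7.54 and 9.37. At Kcnh1 the highest region moved from the start at 0 h (71.8) to a site inside the gene, chr1:192315670-192316005 at 6 h (76.9), which was also the highest at 72 h (73.4). At Kcnn3 the region at the gene end was the highest at 0 h (78.6), but at 72 h it stood at 52.3 beneath one inside the gene (114). At Kcnq3 the highest region at 72 h, chr15:66103466-66103632 (38.3), lay beside that of 0 h at chr15:66103164-66103358 (49.9), which a lower region of 72 h overlapped. Kcnq5, another M-current gene, showed how a broad region can be listed in pieces. Its region at chr1:21960368-21961973 reached the start window at 0 h with a fold of 63.5, while at 72 h chr1:21960342-21960831 had a fold of 117 and a separate region over the start, chr1:21961855-21961946, had 7.03. The region counts thus depend on where the caller split the signal as well as on its height.

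Pore-forming voltage-gated genes (Kcna, Kcnb, Kcnc and Kcnd, 17 genes), which repolarise the membrane after a spike, went from 93 regions to 92 and 57, with 11 loci lower at 72 h, 3 higher and 3 equal. The ratio to all coding loci was 0.718 (0.507 to 1.01). Kcna3 went from 2 regions to 4 and 3, and Kcnd1, the Kv4.1 gene on the X chromosome, from 6 to 6 and 7. The end region of Kcnd1 had folds of 4.54, 5.27 and 10.1, and that end is shared with Otud5. Kcnc1, the Kv3.1 gene of fast-spiking neurons, went from 13 to 12 and 7 and had no end region at 72 h. The silent subunits (Kcnf, Kcng, Kcns and Kcnv, 10 genes), which form no channel alone and modify Kcnb channels, went from 50 to 49 and 33 (0.773, 0.482 to 1.22), with 7 lower, 0 higher and 3 equal.

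The Kcnq and Kcnh genes (13 genes) include the M-current channels of neurons and the ERG channel of the heart. They held the most regions of any group in sum (235, 209 and 155) and had the longest genes by median (280 kb). Per 100 kb of locus at 0 h, the groups ran from 4.59 regions in the pore-forming voltage-gated genes to 10.5 in the silent subunits, and these 13 genes had 7.53. Their ratio at 72 h was 0.772 (0.626 to 0.950), with 12 loci lower and 1 higher. Kcnq1, the channel of the slow cardiac delayed rectifier, went from 40 regions to 33 and 28. Kcnq3, an M-current subunit, had the largest drop in number, from 25 to 20 and 11, and its end region, with a fold of 3.02 at 0 h, was not listed later. Kcnq5 had 27, 31 and 22, and Kcnh1, the EAG channel, 25, 23 and 14. Kcnh2, the ERG channel of cardiac repolarisation, went from 16 to 13 and 6. The exception was Kcnh5, with 25, 24 and 26. Kcnh6 had 10, 9 and 7 regions. Its highest end region had folds of 110 and 125 at 0 h and 6 h and 14.8 at 72 h. The region of the earlier times is shared with the end of Dcaf7, and at 72 h it was still listed with a fold of 137 but began at 106036599, just outside the 1 kb window.

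The calcium- or sodium-activated genes (8 genes) went from 135 to 136 and 87 (0.755, 0.570 to 0.995), and all 8 loci were lower at 72 h. Kcnn3 had 34, 32 and 23 regions, with end folds of 78.6, 83.6 and 52.3. Kcnma1, the pore of the large-conductance BK channel, had 22, 20 and 12. Kcnn1, a small-conductance channel, had 21, 24 and 17, with end folds of 89.2, 99.5 and 112. Kcnn3 and Kcnn1 thus had fewer regions at 72 h, with an end region listed at each time.

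Inward rectifiers (15 genes), which pass potassium more readily into the cell and set the resting potential, went from 111 to 109 and 79 (0.833, 0.616 to 1.12), with 9 lower, 3 higher and 3 equal. Kcnj2 (chr11:111066164-111076825) had 6, 8 and 7 regions, and Kcnj9, a G-protein-gated channel, 10, 13 and 11. Kcnj10, the Kir4.1 channel of glia, had 13, 12 and 13 and overlaps the locus of Kcnj9. Its end region had folds of 9.07 and 9.80 and was not listed at 72 h. Kcnj1, the ROMK channel of the kidney, had 5, 8 and 3.

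Leak channels of the two-pore-domain group (14 genes) went from 101 to 103 and 70 (0.811, 0.590 to 1.11), with 10 lower, 2 higher and 2 equal. Kcnk13, the THIK-1 channel of microglia, had 17, 22 and 21 regions, and Kcnk4, the TRAAK channel, 12, 15 and 13. Kcnk15 went from 4 to 1 and 0, and Kcnk18, the TRESK channel of sensory neurons, from 7 to 7 and 3. Accessory subunits and regulators (17 genes) went from 190 to 184 and 132 (0.813, 0.646 to 1.02), with 13 lower, 1 higher and 3 equal. Kcnip1, a calcium-binding partner of Kv4 channels, had 40, 40 and 27, and its relatives Kcnip2 and Kcnip3 had 19, 13 and 13, and 20, 15 and 12. Kcnab3, a β subunit gene whose end region is shared with Trappc1, had 10, 11 and 6. All 7 groups lay below 1 in this ratio at 72 h, and the interval excluded 1 for Kcnq and Kcnh and for the calcium- or sodium-activated genes. These 2 groups also had the longest genes, with medians of 280 kb and 121 kb, against 17.5 to 37.1 kb in the others. The ratio of all coding genes of at least 100 kb, 0.918, lay inside both of their intervals. No difference between the groups was tested.

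**Figure D5:**
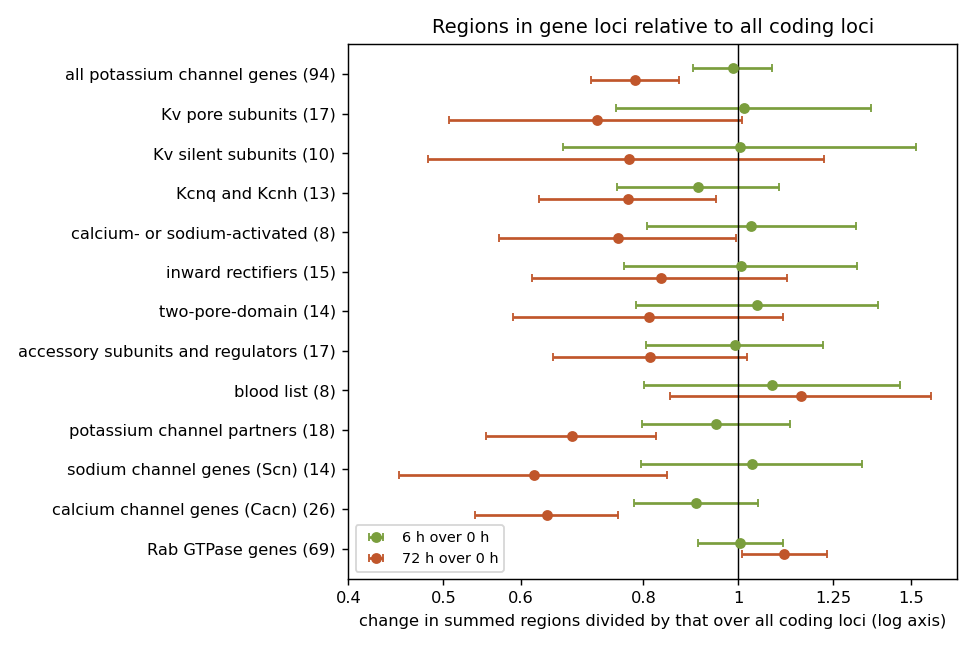
Change in summed regions at 6 h and 72 h relative to all coding loci for each potassium channel group, the blood list and comparison families, with exact 95% intervals. The 7 subunit groups lie between 0.718 and 0.833 at 72 h, and the blood list at 1.16.

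The 8 genes of the blood list (Kcna3, Kcnn4, Kcnj2, Kcnk5, Kcnk6, Kcnk13, Kcnab2 and Kcne3), known from lymphocytes, macrophages, microglia or granulocytes, kept nearly the same number of regions. Their loci summed to 89, 94 and 88 regions, a ratio at 72 h of 1.16 (0.852 to 1.57), with 4 lower, 3 higher and 1 equal. They were denser from the outset, with 20.5 regions per 100 kb at 0 h and 20.2 at 72 h, and 74.2% of their 0 h regions were overlapped at 72 h (63.8 to 82.9). The other 86 genes went from 826 to 525 regions (0.744, 0.666 to 0.831), with 66 lower (76.7%) and 7 higher, and the counting interval of the blood list did not reach theirs. All 8 genes of the list are shorter than 100 kb, however, and the other 63 Kcn genes of that length went from 472 to 321 regions, a ratio of 0.796 whose interval (0.689 to 0.919) overlapped that of the list. An end region was listed for 7 of the 8 at 0 h, 7 at 6 h and 6 at 72 h. Kcnn4 (chr7:24369826-24385212) had 20, 19 and 17 regions, Kcnk6 (TWIK-2) 13, 12 and 13, Kcnab2 20, 21 and 19 and Kcne3 9, 7 and 8. Kcnk5 was the exception, with 2, 1 and 0. Kcnk13 has no end region because its start site lies 1350 bp inside the RefSeq span, and its start window had folds of 53.7, 34.7 and 31.2.

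End regions, those within 1 kb of either end of the gene span, were found for 42 Kcn genes at 0 h (44.7%), 46 at 6 h (48.9%) and 33 at 72 h (35.1%), against 64.2%, 63.8% and 59.1% of coding genes. By 72 h, 9 of 42 had lost it (21.4%, 10.3 to 36.8), against 9.67% of coding genes, and 0 of 52 had gained one (an upper limit of 6.85%), against 3.30%. The highest of those lost was at Kcnk15 (folds 10.6 and 6.03), where the 0 h region is shared with the end of Rims4, then at Kcnj10, Kcnk5, Kcnk18 (6.80 and 6.03), Kcnrg (6.05 and 7.54), Kcnh2 (5.29 and 4.52), Kcnc1 (4.54 and 4.52), Kcnj1 (3.78 and 6.78) and Kcnq3. These folds at 0 h ran from 3.02 to 10.6, and the lowest folds listed anywhere were 3.02, 3.01 and 3.12. At 6 h, 1 of 42 was lost, at Kcnq3 (4% of coding genes), and 5 of 52 were gained (6.05% of coding genes), among them those of Kcnq1 (fold 5.27) and Kcnj15 (4.52), and none of those 5 was listed at 72 h. An end shared with another coding gene stood behind 7 of the 42 at 0 h, so the region there cannot be assigned to the channel gene alone.

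Where an end region was listed at all 3 times, its height was ranked within its own list among the 12616 coding genes with such a region. The 33 Kcn genes had median percentiles of 25.1, 20.4 and 14.3 in time order. By 72 h, 12 ranks were above and 21 below those of 0 h, against 6635 and 5979 among all 12616 genes ranked. The median change was −2.16, against 0.416 for all genes ranked. Kcnab2 stood highest, at 91.3, 89.6 and 89.6, and its end is shared with Nphp4. Kcnj2 was at 62.6, 74.9 and 69.9 and Kcnn4 at 25.1, 28.3 and 36.0.

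Strong regions are those in the upper 50% of their own list by −log10 q, a cutoff of 7.82 at 0 h, 9.25 at 6 h and 13.0 at 72 h, so a gain at 72 h met a stricter cutoff than a loss. At 6 h, 16 strong Kcn regions of 0 h were without overlap, where the share in coding loci was 2.2%, and 7 strong regions of 6 h were new (1.59%, against 1.6%). At 72 h, 97 strong regions of 0 h in 53 genes were without overlap, leaving 80.2% overlapped (76.4 to 83.6), against 13.3% without in coding loci. Of these 97, 84 were still listed at 6 h, and their median fold was 8.32. With strong set at the upper 25% of each list, 5 were lost and 1 was new. The highest were at an end of the silent subunit gene Kcng2 (fold 36.3), inside Kcnh5 (chr12:75139894-75140077, fold 33.3) and inside Kcnj12, an inward rectifier gene of muscle (chr11:61043720-61043977, fold 31.0). Strong new regions at 72 h numbered 12 of 319 (3.76%, 1.96 to 6.48), against 6.86%, in 11 genes. Of the 12, 5 lay in loci of the blood list, which held 5 of the 97 lost. Within that list, 5 of 50 strong regions of 72 h were new (10.0%, 3.33 to 21.8). Of its 58 strong regions of 0 h, 91.4% were overlapped at 72 h (81.0 to 97.1), against 86.7% in all coding loci. Both intervals take in the share over all coding loci.

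Those gained in the blood list were at Kcnn4, Kcnj2, Kcnk13 and Kcnk6. The highest, inside Kcnn4 near its start (chr7:24370556-24370633), had a fold of 35.1 over only 78 bp, where the 4866 regions of 72 h with a fold within 10% of it had a median length of 255 bp and 4 were as short. A second at Kcnn4 (chr7:24389617-24389711) had a fold of 9.37 and was listed at 6 h. Those at Kcnk13 (chr12:99979636-99979811), Kcnj2 (chr11:111066932-111067141) and Kcnk6 (chr7:29239024-29239212) had folds of 11.7, 10.9 and 10.1. Outside that list, Kcnj10 gained a region inside the gene (chr1:172347493-172347691) with a fold of 15.6.

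Genes that work with potassium channels, a list of 18 sulphonylurea receptors, Kv4 and BK partners, anchors and HCN channels, went from 277 regions to 257 and 160 (0.676, 0.553 to 0.825), with 15 lower, 1 higher and 2 equal at 72 h. Dpp6, a Kv4 partner, had 16, 15 and 5, and Abcc9, the sulphonylurea receptor of heart and vessel, 10, 5 and 3. Dlg1, a scaffold protein gene of many tissues, had 12, 9 and 13. Among other channel families, voltage-gated sodium channel genes (14) went from 121 to 122 and 64 (0.619, 0.450 to 0.845) and calcium channel genes (26) from 400 to 354 and 218 (0.638, 0.539 to 0.754). Rab GTPase genes (69), which are broadly expressed, went from 804 to 789 and 765 (1.11, 1.01 to 1.23). The Kcn interval (0.707 to 0.870) overlapped those of sodium and calcium channels and did not reach that of the Rab genes. These families differ in gene length. The median was 103 kb for sodium channel, 104 kb for calcium channel, 32.7 kb for Kcn and 25.3 kb for Rab genes. The longest Kcn gene spans 1136 kb and the longest Rab gene 227 kb. Whether length had a part in the contrast was not tested.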

How the data were processed

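ATAC-seq was made from 1 library per group of 50000 cells each. MACS2 2.2.7, BWA 0.7.17, bedtools 2.30.0 and the build mm10 stand in the submitters' processing notes, with no roles or options there. Duplicate handling, read shifts and pooling are not given in the sources used. Each deposited list gives positions, a fold (a ratio of summit to background), a −log10 q-value, a −log10 p-value and the summit offset, as the authors' caller wrote them. Read totals were not used, so depth is unknown here.

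Regions were counted with Python 3.11.15, pandas 2.3.3, numpy 2.4.6 and scipy 1.17.1. The table of all gene spans carries no strand, so both ends were used, while the RefSeq start windows of 69 members carry it. Overlap needed 1 bp. Shares have exact Clopper-Pearson 95% intervals and count ratios exact intervals from a binomial split, treating the counts as independent. The counting was tested on simulated regions. The members, lists and named genes were chosen with earlier results of these data known. Named members were those with most regions, with the largest rise or fall, in the blood list, with the highest end region or with an end region lost, and others are named where stated. Alternatives were other flanks, thresholds, list sizes and overlap rules, and leaving out the locus with most regions. The comparison of the blood list with short genes was added after seeing the data. Values of some single members are not reported here.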

Additional observations from a re-analysis of the deposited data

How the results depend on the processing

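Of 90 values of 12 results under other settings, 60 kept within the limit set and 30 moved, mostly with thresholds. The ratio at 6 h crossed 1 only with 50 kb flanks (1.003, 0.942 to 1.07, from 0.987), with 1 inside the interval in every setting run. With regions of fold 10 or more only, overlap at 6 h was 99.4% and at 72 h 93.5%, new regions at 72 h 2.65%, loci lower and higher at 72 h 32 and 26, genes with an end region at 6 h 30, strong regions lost 20 and the ratio at 72 h 0.872, with an upper limit of 1.02. With −log10 q of 10 or more these were 98.8% and 86.3%, 4.37%, 43 and 20, with 55 strong regions lost. With lists of equal size overlap was 80.0% and 65.3%, new regions 19.6% and loci higher 22. At fold 10 or more, 6.47% of Kcn 0 h regions were without overlap at 72 h, against 4.93% over all coding loci. At −log10 q of 10 or more these shares were 13.75% and 8.64%, and with lists of equal size 34.7% and 27.0%. New regions at 72 h over all coding loci were 6.05%, 7.74% and 27.4% in that order. At that −log10 q, 28.2% of coding loci were lower and 30.6% higher at 72 h, and with equal-sized lists 32.1% and 36.5%. When 50% of a region had to be covered, overlap was 70.2% and 49.6%, new regions 21.7% and strong new regions 32. With no flank, overlap at 72 h was 48.7% and new regions 20%. With 50 kb flanks, overlap at 72 h was 58.3%, the ratio 0.876, strong regions lost 170 and new 27. With the upper 25% as strong, 5 were lost and 1 was new. The causes were not tested. No paired analysis was possible because each group held 1 library. Among the restricted settings, loci lower and higher were nearly balanced at fold 10 or more, where 34.0% of Kcn and 21.5% of all coding loci were lower. A locus without a region can hold signal under the lowest listed fold.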

Other observations

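By presence in the 3 lists, the 1150 merged regions of Kcn loci were listed in all 3 in 39.5% (36.6 to 42.4), against 43.7% in coding loci. At 0 h alone 18.5% were listed, against 14.1%, at 6 h alone 14.3%, against 11.4%, and at 72 h alone 5.74% (4.47 to 7.24), against 10.6%. By gene density, the 277 Kcn regions of 0 h in the gene-poor part of the genome were overlapped at 72 h in 47.3% (41.3 to 53.4), against 59.8% of all, and the 396 in the gene-dense part in 57.6% (52.5 to 62.5), against 64.9%.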
